A study of Mus musculus with 3 samples.

Results

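The genes described here encode the constitutive proteasome: the subunits of the 20S core and the 19S cap, and the chaperones that assemble them. They were taken by name, as all probes whose gene symbol on the array began with Psma, Psmb, Psmc, Psmd or Psmg followed by a number, without the immunoproteasome genes Psmb8, Psmb9 and Psmb10. The rule gave 43 probes for 39 of the 17742 named genes, each gene read on its brightest probe. Psma3 and Psmb3 were not analysed here. One gene the rule brings in is no subunit: Psmc3ip encodes a partner of the meiotic recombinases and is listed apart.

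The resistant group was 1 array of B117HS, a line raised from the parental line by about 10 weeks of exposure to rising amounts of cytarabine (Ara-C), with an IC50 about 10 times that of the parent. The sensitive group was 2 arrays, replicates 1 and 2, of that untreated parent, B117P. Both are cultured bone marrow leukaemia cells of the BXH-2 mouse strain, so the resistant group stands for 1 selected line on 1 array. Each array carried Cy5-labelled antisense RNA amplified from total RNA and gave an intensity, in arbitrary units, for 26423 probes. The labels do not say whether the 2 parental arrays came from separate cultures. P-values therefore rest on a spread that may be technical.

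The proteasome is the protease that breaks down most short-lived, misfolded and ubiquitin-tagged proteins of the cell, and its inhibitors are used against cancers of the blood. Its core is a barrel of stacked rings: alpha subunits make the gated outer rings and beta subunits the inner ones, of which beta 1, beta 2 and beta 5 cut the substrate. The cap has a base, with a ring of ATPases that unfold the substrate and thread it into the core, and a lid that strips off the ubiquitin. The transcription factor Nrf1, encoded by Nfe2l1, raises many proteasome genes together when the enzyme is short.

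The resistant array was dimmer in all, and this bears on every value below. Its median intensity was 24.9, against 58.4 and 72.5 on the sensitive arrays. Probes and genes with a mean of at least 500 units over the arrays are called bright here. Over the 6167 bright probes that read above 0 on every array, the resistant array's median log2 ratio to the mean of the sensitive arrays was -0.77. Differences are therefore given as deposited and again after each array was scaled on these bright probes. The shift was -0.88 when bright probes were picked on the sensitive arrays alone and -0.57 over probes of at least 500 units on every array. A gene was called when limma's adjusted p was under 0.05 over all genes and log2(intensity + 50) on the resistant array was at least 1 above, or at least 1 below, both sensitive arrays. Of 8 myeloid markers, 6 read at least 50 units on the resistant array and 7 and 8 on the sensitive arrays, with Mpo brightest on each. Among the others, values differed in both directions: Csf1r read 28.0 against 2413 and 3009, Spi1 109 against 634 and 591, Itgam 443 against 1318 and 2389, and Elane 11153 against 272 and 350. The summed level of 3 B cell markers was 143 on the resistant array and 1290 and 1378 on the sensitive arrays, and that of 4 T cell markers 118 against 318 and 281. For 5 stromal and endothelial markers the sum was 1711 against 813 and 959, most of it Pecam1, and for 2 erythroid markers 34.2 against 73.3 and 64.6. The part of these differences in the results was not tested.

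As deposited, the constitutive proteasome genes read lower in the resistant cells, as bright probes in general did. The resistant array read below both sensitive arrays for 38 of the 39 genes, against 68.4% of all genes tested, and Psmd7 was the exception. The median log2 difference of the 39 genes, resistant minus sensitive, was -0.85 as deposited, with -0.33 over all genes and -0.74 over all 5318 bright genes. After scaling the median was -0.19, with -0.06 over all genes and -0.0025 over bright genes. Of the 39 genes, 13 then lay above 0 and 26 below. Among all 17742 genes 8127 lay above 0, and among the 5318 bright genes 2653 did. The 34 bright members alone had a median of -0.91 as deposited and -0.15 after scaling. Of these, 12 lay above 0 after scaling and 22 below. In bulk RNA of this kind, fewer cells that express a gene and less RNA per cell cannot be told apart.

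Of the 39 genes, 10 were called lower and 0 higher as deposited, where 18.5% of all genes were called lower and 5.23% higher. Among bright genes alone 35.2% were called lower and 8.86% higher, so 10 of 34 bright members was no more than the background. After scaling, 2 were called lower, Psmd8 and Psmc3, and 0 higher, where 8.45% of all genes were called lower and 9.86% higher. Both are among the 34 bright members. Of the 5318 bright genes, 716 were called lower after scaling and 935 higher. In limma, an unadjusted p under 0.05 was reached by 30 of the 39 genes as deposited, where 54.9% of all genes and 75.6% of bright genes reached it. After scaling 15 of the 39 reached it, where 46.3% of all genes and 59% of bright genes did. With bright probes picked on the sensitive arrays alone, Psmc3 lost its call and Psmd7 was called higher, and with a floor of 50 units in place of the offset 0 of the 39 genes kept a call. Below, "fell" is used only of Psmd8 and Psmc3, and other calls are given as calls on the deposited scale.

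**Figure D1:**
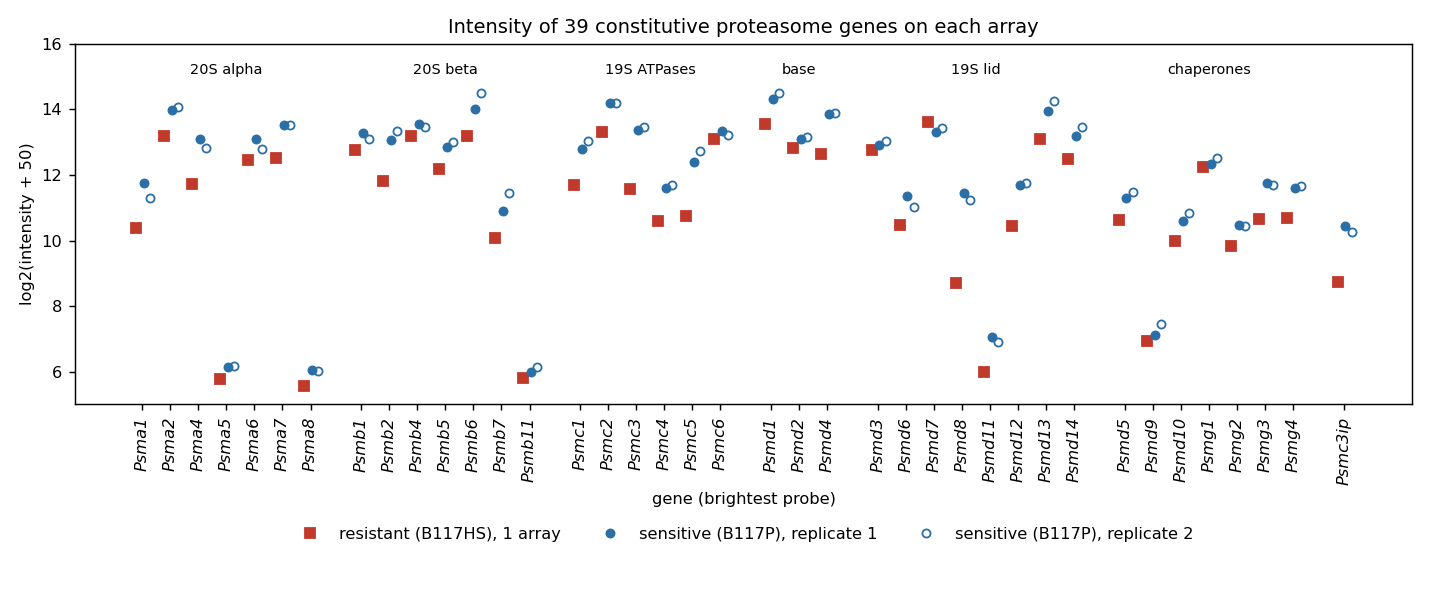
Intensity of the 39 constitutive proteasome genes on each array, as log2(intensity + 50), by place in the complex, with the resistant array (red squares) left of sensitive replicates 1 (filled circles) and 2 (open circles). Most genes sit high on all 3 arrays with the resistant array lower; Psma5, Psma8, Psmb11, Psmd9 and Psmd11 sit near the bottom on all of them, and Psmd7 is the one gene whose resistant value is on top.

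The count of genes close to 0 after scaling is given here for all members and by place in the complex. After scaling, 27 of the 39 lay within 0.5 log2 units of 0, where 56.6% of all genes did. Among the 34 bright members the count was 24, where 37.9% of bright genes lay that close. By place, 12 of 14 core genes, 6 of 7 chaperones and 3 of 3 base scaffold and receptor genes lay within that distance, against 3 of 6 ATPases and 3 of 8 lid genes, and these counts were not tested against each other. The core count includes the dim Psma5 and Psmb11 and the chaperone count the dim Psmd9, all drawn towards 0 by the offset of 50. In full, the scaled differences of the 39 genes ran from -1.94 to 1.01. The middle 50% of the bright members ran from -0.44 to 0.11 on the scaled difference, and that of 5284 other bright genes from -0.65 to 0.76. The 16 members whose mean intensity lay between 2608 and 9700 units, the middle of the bright members, had quartiles of -0.48 and 0.37, and 1269 other genes of that brightness had quartiles of -0.54 and 0.87. Since the genes share their arrays, these spreads are a description with no test. Between the sensitive arrays themselves, replicate 2 minus replicate 1, the 39 genes had a median log2 difference of 0.07 and ranged from -0.45 to 0.55.

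**Figure D2:**
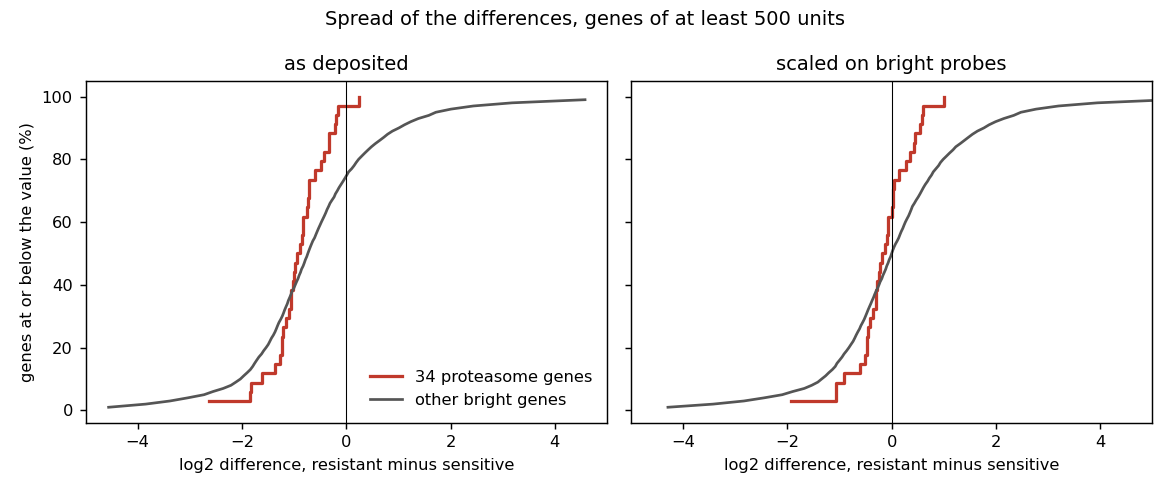
Cumulative share of genes, in percent, at or below each log2 difference, resistant minus sensitive, as deposited (left) and after scaling on bright probes (right). The 34 bright proteasome genes (red) climb more steeply than other bright genes (grey, percentiles 1 to 99); after scaling the members end at -1.94 and 1.01.

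In the alpha ring, 1 of 7 genes was called lower as deposited and 0 after scaling. Psma4, whose yeast counterpart holds the gate of the core shut, read 3344 on the resistant array and 8810 and 7128 on the sensitive arrays. Its log2 difference was -1.23 (SE 0.21, limma adjusted p = 0.00049) as deposited and -0.47 after scaling. The groups did not overlap, but Psma1 showed a like pattern without a call, with 1280 against 3419 and 2494, since it missed the size asked against replicate 2. Psma2 (9251 against 16305 and 17104), Psma7 (5869 against 11774 and 11675) and Psma6 (5564 against 8671 and 7110) were not called. Psma6 had the smallest difference among the bright alpha genes as deposited (-0.49), and after scaling Psma2 did (-0.08, against 0.27 for Psma6).

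A pair of alpha genes gave little signal on any array. Psma8, which encodes a testis form of alpha 4, read -3.11 on the resistant array and 16.2 and 14.5 on the sensitive arrays. Psma5 encodes alpha 5, which every core particle carries, yet its single probe read 4.67 on the resistant array and 19.9 and 22.4 on the sensitive arrays. At this signal a log2 difference (-0.38 for Psma5, -0.48 for Psma8) says little, because the offset of 50 outweighs the intensities. Why the Psma5 probe was dim was not tested.

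The beta ring held 1 called gene of 7 as deposited, Psmb2, and 0 after scaling. Psmb2, a subunit without an active site, read 3593 on the resistant array and 8493 and 10271 on the sensitive arrays. Its log2 difference was -1.37 (SE 0.21, limma adjusted p = 0.00021) as deposited and -0.60 after scaling. Psmb4 (9307 against 12040 and 11334) was closer to its parental level, with -0.33 as deposited and 0.44 after scaling. Psmb11, the beta 5 form of thymic epithelium, read 6.22 on the resistant array and 13.7 and 19.8 on the sensitive arrays, near the bottom of the range on each.

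None of the 3 catalytic genes of the constitutive core was called on either scale. Psmb6, the beta 1 subunit with caspase-like activity, read 9343 on the resistant array and 16664 and 23034 on the sensitive arrays (log2 difference -1.06, SE 0.23, limma adjusted p = 0.0025). Psmb7, the trypsin-like beta 2 subunit, read 1024 against 1860 and 2753 (-1.11, SE 0.25, limma adjusted p = 0.0031). Psmb5, the chymotrypsin-like beta 5 subunit and the main target of bortezomib, read 4617 against 7349 and 8178 (-0.74, SE 0.20, limma adjusted p = 0.0090). All 3 were lower than on either sensitive array, and Psmb6 and Psmb7 missed the size asked against replicate 1 only. After scaling the differences were -0.30 for Psmb6, -0.36 for Psmb7 and 0.02 for Psmb5, each within 2 SE of 0.

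Of their immunoproteasome counterparts, which replace the catalytic subunits in cells under interferon, Psmb9 and Psmb8 were lower by far more and Psmb10 was not. Psmb9 (84.0 against 5074 and 4978) and Psmb8 (317 against 9665 and 10199) were called lower on both scales, while Psmb10 (3783 against 10273 and 11501) was called as deposited only. As a ratio within each array, which a scale factor moves little, the constitutive gene's log2 difference exceeded that of its counterpart by 4.18 for Psmb6 over Psmb9 and by 4.02 for Psmb5 over Psmb8. For Psmb7 over Psmb10 it exceeded it by 0.40, close to the smallest gap between 2 probes of 1 gene (0.32). These gaps are set between probes of different genes and carry no test.

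Promoters are shown for the catalytic genes Psmb5 and Psmb6, and no window was at hand for Psmb7. Psmb5 and Psmb6 are shown because the motif bound by Nrf1 and its relatives, the core of the antioxidant response element, lies close to their start. Psmc6, near the top of the differences, and Psmd8, at the bottom, are set beside them. Each window runs from 250 bases before to 50 after the transcription start, from RefSeq on GRCm38.p6, 5′ to 3′ on the gene's strand, and capitals mark TGACNNNGC on either strand.
Psmb5, chr14:54617946-54618245, minus strand: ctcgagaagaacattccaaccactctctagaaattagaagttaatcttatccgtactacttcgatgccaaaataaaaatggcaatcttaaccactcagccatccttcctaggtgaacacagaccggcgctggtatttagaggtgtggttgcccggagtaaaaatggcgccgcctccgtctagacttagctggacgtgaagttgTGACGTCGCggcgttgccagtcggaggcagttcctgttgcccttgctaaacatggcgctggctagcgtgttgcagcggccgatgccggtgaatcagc
Psmb6, chr11:70525107-70525406, plus strand: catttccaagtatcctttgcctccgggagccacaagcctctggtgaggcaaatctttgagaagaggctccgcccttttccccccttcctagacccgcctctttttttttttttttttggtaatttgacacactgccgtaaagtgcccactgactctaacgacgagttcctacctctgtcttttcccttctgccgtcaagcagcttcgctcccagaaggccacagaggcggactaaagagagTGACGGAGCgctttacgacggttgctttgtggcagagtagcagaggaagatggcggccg
Psmc6, chr14:45329574-45329873, plus strand: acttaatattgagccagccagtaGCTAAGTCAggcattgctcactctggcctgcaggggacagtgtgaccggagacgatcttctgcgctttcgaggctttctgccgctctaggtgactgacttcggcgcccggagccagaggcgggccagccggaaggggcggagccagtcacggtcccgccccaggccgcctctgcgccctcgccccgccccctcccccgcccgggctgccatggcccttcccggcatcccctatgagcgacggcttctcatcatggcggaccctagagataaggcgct
Psmd8, chr7:29180624-29180923, minus strand: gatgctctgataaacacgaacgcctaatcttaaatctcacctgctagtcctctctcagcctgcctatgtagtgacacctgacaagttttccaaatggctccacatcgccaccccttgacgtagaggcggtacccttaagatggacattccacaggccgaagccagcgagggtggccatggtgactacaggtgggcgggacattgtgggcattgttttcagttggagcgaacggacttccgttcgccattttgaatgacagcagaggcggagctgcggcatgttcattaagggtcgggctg

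The match begins at base -47 from the start site in Psmb5, -9 in Psmb6 and -227 in Psmc6, and the window of Psmd8 has none. RefSeq windows were at hand for 31 of the 39 genes, 33 windows in all. The motif was in 5 of the 33 (15.2%), those of Psmb5, Psmb6, Psmc6, Psmd9 and Psmd12, and in 12.4% of all 32851 windows. The 5 genes with a match had a median log2 difference of -0.74 as deposited and the 26 without one -0.91, over ranges that overlapped (-1.27 to -0.17 with a match, -2.63 to -0.19 without). A GC box, searched as GGGCGG on both strands, was in 57.6% of the members' windows and 35.7% of all windows, and a CCAAT box, searched as CCAAT, in 33.3% and 37.4%. Median GC content was 59% in the members' windows and 52.7% in all. The 39 genes lie on 16 chromosomes, at most 6 on one.

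In the ring of ATPases at the base of the cap, 3 of 6 genes were called lower as deposited, where 35.2% of bright genes were. Psmc3 read 3012 on the resistant array and 10478 and 11305 on the sensitive arrays, or 27.6% of the sensitive mean. Psmc3 fell on both scales, with -1.84 (SE 0.20, limma adjusted p = 1.54e-05) as deposited and -1.08 (SE 0.14, limma adjusted p = 0.020) once scaled. Psmc5 was close to Psmc3, with 1658 against 5321 and 6753 (-1.82, SE 0.21, limma adjusted p = 3.06e-05). Its scaled difference of -1.07 missed the size asked against replicate 1, so that it was called as deposited only.

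Psmc1, the third ATPase called, read 3292 on the resistant array and 7053 and 8426 on the sensitive arrays (-1.22 as deposited, -0.45 after scaling). Psmc2 (10181 against 18866 and 18877) and Psmc4 (1514 against 3036 and 3245) were not called and lay near the shift of bright probes, at -0.89 and -1.03. Psmc6 stood at the other end of the ring. It read 8761 on the resistant array and 10272 and 9416 on the sensitive arrays, with -0.17 (SE 0.20, limma adjusted p = 0.52) as deposited and 0.60 (limma adjusted p = 0.071) once scaled. The 6 ATPases form 1 ring with 1 copy of each, and their deposited differences spanned -1.84 to -0.17. Their middle 50% ran from -1.67 to -0.92, and that of all 5318 bright genes was wider, from -1.36 to 0.007.

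Among the other base subunits, 1 of 3 was called lower as deposited and 0 after scaling. Psmd4, a ubiquitin receptor, read 6294 on the resistant array and 14746 and 15046 on the sensitive arrays (log2 difference -1.24, SE 0.20, limma adjusted p = 0.00030), and its scaled difference was -0.47. The large scaffold subunits Psmd1 (12082 against 20378 and 22964) and Psmd2 (7145 against 8796 and 9199) were not called. The difference of Psmd2 was -0.33 as deposited and 0.44 after scaling.

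The lid held both ends of the range, Psmd8 and Psmd7, with 2 of 8 genes called lower as deposited and 1 after scaling. Psmd8, which completes the assembly of the lid in yeast, read 366 on the resistant array and 2727 and 2340 on the sensitive arrays, or 14.4% of the sensitive mean. Psmd8 fell on both scales, with -2.63 (SE 0.22, limma adjusted p = 1.84e-06) as deposited and -1.94 (SE 0.20, limma adjusted p = 0.015) once scaled. Its second, dimmer probe read 165 on the resistant array and 311 and 369 on the sensitive arrays, a difference of only -0.86 as deposited and -0.23 after scaling. The 2 probes of Psmd8 thus point the same way but differ by 1.78 in the size of the difference.

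Psmd7, the partner with which the lid's deubiquitinase works, was the only member higher on the resistant array than on both sensitive arrays. It read 12578 on the resistant array and 10198 and 11113 on the sensitive arrays, which is 0.24 higher in log2 terms (SE 0.20, limma adjusted p = 0.34). Once scaled it was 1.01 higher (SE 0.14, limma adjusted p = 0.021), short of the size asked against replicate 2 and not called. The deubiquitinase itself, Psmd14, read 5738 against 9349 and 11275, with -0.83 as deposited and -0.07 after scaling.

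Psmd12, another lid subunit, was called lower as deposited, with 1353 on the resistant array and 3230 and 3443 on the sensitive arrays (-1.27, SE 0.20, limma adjusted p = 0.00030). After scaling it differed by -0.52 without a call. Psmd3 (6899 against 7728 and 8374), Psmd6 (1377 against 2582 and 2018) and Psmd13 (8752 against 15704 and 19737) were not called. Psmd11 was dim on every array, with 14.0 on the resistant array and 83.2 and 69.9 on the sensitive arrays, and missed a call as deposited at -0.98.

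**Figure D3:**
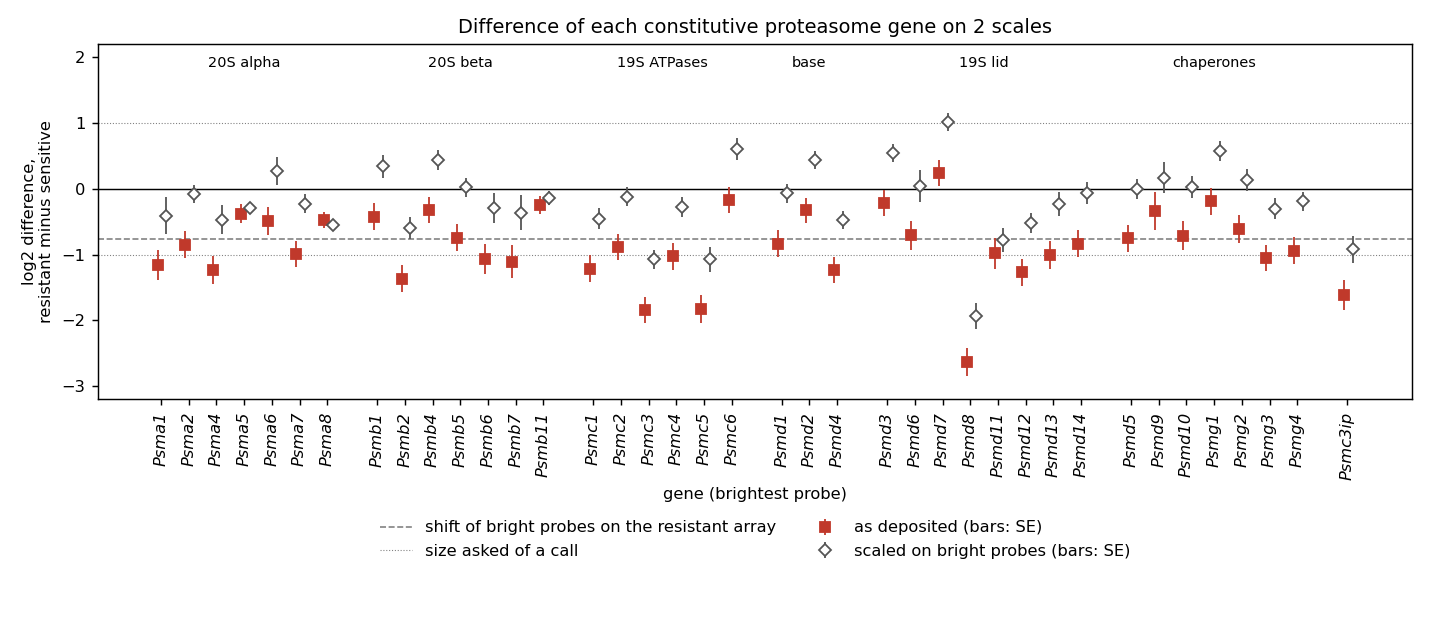
Log2 difference of each gene, resistant minus sensitive, as deposited (red squares) and after scaling on bright probes (open diamonds), with limma's SE as bars. The deposited values gather around the dashed line at -0.77, the shift of bright probes. Psmd8, Psmc3, Psmc5 and Psmc3ip, the last of which is no subunit, lie well below it and Psmd7 above 0.

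The assembly chaperones had 1 of 7 genes called lower as deposited and 0 after scaling. Psmg3, which with Psmg4 forms a chaperone of the alpha ring, read 1579 on the resistant array and 3439 and 3236 on the sensitive arrays (-1.06, SE 0.20, limma adjusted p = 0.0011). Psmg4 was close to its partner, with 1615 against 3079 and 3213 (-0.94), and the scaled differences were -0.30 for Psmg3 and -0.19 for Psmg4. The other alpha ring chaperone pairs Psmg1 with Psmg2. Psmg1 read 4768 against 5113 and 5821, a difference of -0.19 as deposited and 0.57 after scaling, and Psmg2 read 871 against 1369 and 1336 (-0.61 and 0.13). The chaperones of the cap's base, Psmd5 (1538 against 2459 and 2812), Psmd9 (73.1 against 88.2 and 125) and Psmd10 (971 against 1495 and 1770), were not called. Psmd10 is also known as the oncoprotein gankyrin.

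The 4 genes with a second probe show how far one probe can be trusted. Beside Psmd8, the second probe of Psmb1 differed by -1.27 as deposited (502 against 1450 and 1138) and the brighter one by -0.42 (6890 against 9814 and 8720). After scaling the Psmb1 probes lay on opposite sides of 0, at -0.56 and 0.34. The probes of Psmd10 (-0.72 and -0.38) and Psmg4 (-0.94 and -0.62) were closer. The gaps between probes of 1 gene, 0.32 to 1.78 log2 units, were thus as wide as many of the gaps between members. Psmc3ip, which is no subunit, read 376 on the resistant array and 1350 and 1177 on the sensitive arrays and was called lower as deposited (-1.62), with -0.92 and no call after scaling.

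Other genes of the pathway, listed with earlier results of these arrays known, spread more widely than the members as deposited. Of 24 measured genes of 34 listed, 8 were called lower and 0 higher as deposited, and 3 lower and 2 higher after scaling. As deposited, 18.5% of all genes and 35.2% of bright genes were called lower. After scaling, 8.45% of all genes were called lower and 9.86% higher. As deposited, the middle 50% of differences ran from -1.13 to -0.45 over the 39 members. Over the 24 other genes it ran from -1.33 to -0.13, with a median of -0.79. Of these, Psme2, Psmf1, Nfe2l3 and Zfand5 read at most 22.4 units on any array. The offset of 50 draws their differences towards 0, so the 2 ranges are not alike in brightness. Of 5 activators and inhibitors, Psme1, part of the interferon-induced cap PA28, was called lower on both scales (470 against 3289 and 2853, log2 difference -2.58). Psme2, the other gene of PA28, read 17.1 against 13.7 and 17.1, too dim for its difference to say much. Psme3, the nuclear form of that cap, was called as deposited only (-1.31). Psme4, which encodes the activator PA200, read 2022 on the resistant array and 1311 and 1662 on the sensitive arrays. It was called higher after scaling only (1.20, limma adjusted p = 0.028).

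Among 9 measured further subunits and associated factors, 4 were called lower as deposited and 1 after scaling. Ecpas, which tethers core and cap, read 3505 on the resistant array and 13621 and 14234 on the sensitive arrays and was called on both scales (-1.97 and -1.21). The cap's deubiquitinases Usp14 (2660 against 8677 and 8559) and Uchl5 (4388 against 11321 and 12271) and the small lid subunit Sem1 (4402 against 8960 and 9162) were called as deposited only. Adrm1, a ubiquitin receptor of the base (-0.86), and Pomp, the maturation factor of the core (-0.55), were not called.

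In the Nrf1 pathway, as deposited, Nfe2l1 itself was near its parental level and 1 of 6 measured genes was called lower. Nfe2l1 read 2318 on the resistant array and 2029 and 2348 on the sensitive arrays, between the 2 values of its parent (0.08, SE 0.21, limma adjusted p = 0.76). Once scaled, Nfe2l1 was 0.84 higher (SE 0.16). It then met the adjusted p asked but not the size, so it was not called. Vcp, the unfoldase that draws Nrf1 and other proteins out of membranes, was called lower on both scales (1377 against 9314 and 7898, -2.60 as deposited). Mafk, a small Maf partner of such factors, was called higher after scaling only (1168 against 897 and 909, 1.10). Nfe2l2, the related stress factor Nrf2, was not called (-0.79 as deposited, -0.08 after scaling). Of 4 measured shuttle receptors, Rad23b was called lower as deposited only (-1.57), and Ubqln1 (-0.60) was not called.

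**Figure D4:**
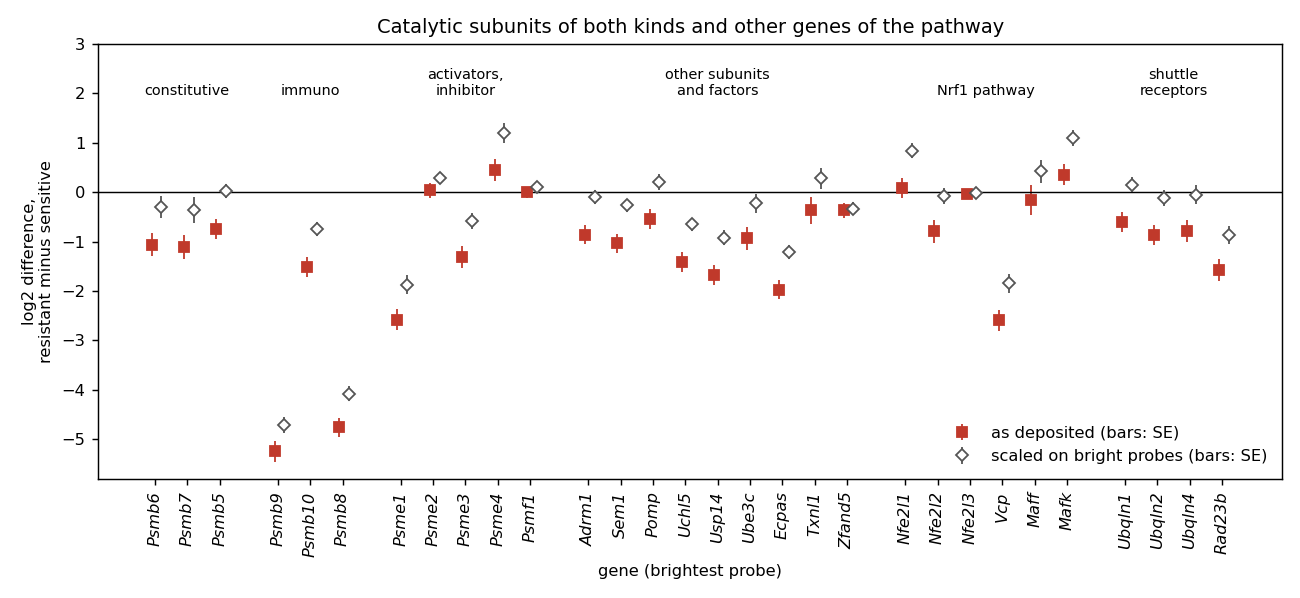
Log2 difference, resistant minus sensitive, as deposited (red squares) and after scaling on bright probes (open diamonds), with limma's SE as bars, for the constitutive catalytic genes, their immunoproteasome counterparts and the other pathway genes. Psmb9 and Psmb8 lie between -5.24 and -4.08 on both scales, while Psmb6, Psmb7 and Psmb5 lie between -1.11 and 0.02.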

How the data were processed

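The deposited table holds a linear intensity for each probe on each array. Some values lie below 0, which a background subtraction by the authors would give. For scanner, image software and scaling, nothing is given in the sources used here. Probes were named through the platform's symbol table: 20377 had 1 symbol, 0 several and 6046 none. Symbols were updated through RefSeq (GRCm38.p6, names only): 18213 were current, 2126 older and 38 unmatched.

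The analysis used log2(intensity + 50), which understates the change of dim genes. limma 3.58.1 in R 4.3.3 (lmFit, eBayes with trend) was fitted over all 17742 genes, with 1 residual degree of freedom and 11.0 prior ones. The single resistant array was taken to vary as the sensitive ones do. P-values were adjusted by Benjamini-Hochberg over all genes. The step was also run on simulated arrays, all 3 drawn around the sensitive levels with limma's fitted spread. These had no overall dimming, so they cannot speak to the shift or to the spread of the single resistant array. Error is limma's SE. Depth has no counterpart on arrays, and 3 arrays limit the precision. Tables and plots were made in Python 3.11.15 (pandas 2.3.3, matplotlib 3.10.9).

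Members, lists and tests were chosen with earlier results of these data known. Named with values were the called members, those at or below 10 units, the catalytic genes and the extremes of each subgroup, and from each pathway list the called genes, at most 4, with up to 2 others. The remaining bright members are given by their intensities. Alternatives covered scaling, offset, probe choice, filters, variance model and thresholds.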

Additional observations from a re-analysis of the deposited data

How the results depend on the processing

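The count of constitutive proteasome genes called lower depends on the scaling between arrays. It was 10 as deposited, 2 after scaling on bright probes, 4 with quantile normalization and 3 with each array centred on its median. Of all genes, 18.5%, 8.45%, 8.3% and 7.74% were called lower in these settings. With bright probes picked on the sensitive arrays alone, chosen after seeing the data, it was 1, with 1 called higher (Psmd7). There 7.78% of all genes were called lower and 10.9% higher. With probes bright on every array it was 3, where 10.4% of all genes were called lower. The floor of 50 gave 0, where 0.147% of all genes were called lower. With that floor, 18 members had an unadjusted limma p under 0.05 and 11 the size asked. The share of all genes that did so was not counted, so these counts do not set the members apart from other genes. A size of 0.6 in place of 1, as deposited, gave 24 called lower. Psmd8 was called under every scaling run, and Psmc3 under all but the one on probes bright on the sensitive arrays. The median log2 difference of -0.85 became -0.19, -0.54 and -0.28 under the first 3 scalings, and -0.12 and -0.32 under the added ones; over bright members alone it was -0.91. Leaving out 1 sensitive array, with no test, gave 14 and 12 genes at least 1 log2 unit lower, and a median of -0.91 to -0.83. The share of all genes is not given for these counts or for the size of 0.6. Of all calls over the 17742 genes, 22.0% were higher as deposited, 53.8% on bright probes, 50.9% with quantile normalization and 53.8% with centring. The floor of 50 left 26 lower and 133 higher calls, 83.6% of them higher.

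Some genes changed sign, and the lists below cover only the genes followed across settings. Over all 39 members, 1 lay above 0 as deposited, 13 on bright probes, 5 with quantile normalization and 12 with centring. With probes bright on the sensitive arrays 17 did, and with probes bright on every array 9. Of all 17742 genes, 4476 lay above 0 as deposited and 8127 on bright probes, and the share is not given for the other settings. On bright probes Pomp became 0.21, Psmb5 0.023, Psmc6 0.60, Psmd2 0.44, Psmg1 0.57 and Ubqln1 0.15. After quantile normalization Psmc6 became 0.0076 and Psmg1 0.14. After centring Pomp became 0.019, Psma5 0.19, Psma8 0.089, Psmb11 0.32, Psmc6 0.40, Psmd2 0.24 and Psmg1 0.37. With probes bright on the sensitive arrays Adrm1 became 0.012, Nfe2l2 0.025, Pomp 0.31, Psmb5 0.13, Psmc6 0.71, Psmd2 0.54, Psmg1 0.68 and Ubqln1 0.25. With probes bright on every array Pomp became 0.011, Psmc6 0.40, Psmd2 0.24 and Psmg1 0.38. Without sensitive replicate 1 Nfe2l1 was -0.018. Of the genes listed by name none was called as deposited. No paired analysis was possible because the groups share only 1 replicate number, and that of the resistant array is not from its label.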
